A study of Homo sapiens with 4 samples.

Results

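The genes described here are the receptors NOTCH1, NOTCH2 and NOTCH3, the ligands JAG1, JAG2 and DLL1 and the target genes HES1, HEY1, HEY2 and NRARP, whose transcripts were counted by RNA sequencing of the ovarian carcinoma line SKOV3. They were chosen by symbol from the deposited count table, which held 11 rows under these 10 symbols among 65988 gene identifiers. The additional row was another identifier for DLL1, listed at 0 in every library and not measured, and each of the 10 genes had one row with reads. All 10 passed the filter on low counts and were among the 18602 genes tested. SKOV3 is an established human line with an amplified ERBB2 gene. The 2 wild-type libraries came from cells labelled cisplatin susceptible. The 2 cisplatin-resistant libraries came from cells derived from them by 6 cycles over 5 months, each of 4 hours in cisplatin at a rising concentration and 3 weeks without it. Both kinds of cells were collected untreated in log growth, and the labels do not say whether the resistant cells were cloned or the selection repeated. Cells kept in culture for the same time without cisplatin were not analysed here, and resistance and time in culture cannot be told apart.

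Notch signalling passes between touching cells. A Jagged or Delta ligand on one cell binds a Notch receptor on its neighbour, a surface protease and then gamma-secretase cut the receptor, and the freed intracellular part enters the nucleus, where it joins the DNA-binding protein RBPJ and a Mastermind coactivator at target genes. HES and HEY proteins made from those targets are transcriptional repressors, and NRARP feeds back on the intracellular part. NOTCH3 is known for amplification in a subset of ovarian serous carcinomas, and Jagged ligands are known from ovarian tumour cells. Because the receptor is switched on by cleavage, transcript levels and signalling are separate quantities, and only transcripts were measured here.

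Library totals ran from 43658695 to 79592903 counts, and both resistant libraries were deeper than both wild-type libraries. Levels are in CPM, a gene's counts scaled to a common library size after TMM scaling, where 1 CPM stood for 42.6 to 83.1 counts. Correlations of log2 CPM were 0.984 and 0.99 within the groups and 0.922 to 0.927 between them. Of the 7 markers listed for the carcinoma line, 5 had at least 1 CPM in every library, among them KRT8 (366 to 618 CPM) and ERBB2 (2070 to 5770 CPM), and the list, mostly ERBB2, summed to 6120 to 6690 CPM in wild-type and 2670 to 3350 CPM in resistant libraries. Its members differed in direction: EPCAM had 30.9 and 32.3 CPM in wild-type against 3.06 and 4.13 CPM in resistant cells and MUC16 1.81 and 2.12 against 0.03 and 0.0361 CPM, while PAX8 had 2.56 and 3.72 against 5.04 and 4.27 CPM and the gene WT1 0.986 and 0.721 against 2.15 and 1.89 CPM. The summed endothelial list, relevant because endothelial cells use Notch heavily, was 9.37 to 11.4 CPM in wild-type and 1.94 to 2.14 CPM in resistant libraries. PECAM1 made up most of the wild-type sum, at 10.2 and 7.65 CPM against 0.765 and 0.854 CPM in resistant cells. KDR had 0.845 and 1.31 CPM in wild-type against 0.96 and 0.89 CPM in resistant cells, with overlapping groups. CDH5, TEK and EMCN stayed at or under 0.273 CPM in every library. All 5 leukocyte markers were under 1 CPM throughout, and the fibroblast list summed to 27.0 to 36.4 CPM in wild-type and 28.6 to 31.1 CPM in resistant libraries, with THY1 at 0. That sum hid opposite differences: COL1A2 had 17.8 and 20.4 CPM in wild-type against 4.29 and 3.27 CPM in resistant cells, LUM 0.845 and 0.779 against 5.82 and 4.31 CPM, and COL1A1 7.77 and 14.9 against 17.8 and 22.9 CPM. Their part in the results was not tested. In such bulk libraries, fewer cells with a transcript and less of it per cell cannot be told apart.

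Resistant cells had more NOTCH1 and HEY1 and less JAG2, NRARP and HES1 than wild-type cells. Of the 10 genes, 2 were higher and 3 lower in edgeR's quasi-likelihood test at a Benjamini-Hochberg adjusted p under 0.05, or 5 of 10 called, where 45.3% of all tested genes were called, 22.1% higher and 23.2% lower. With library totals in place of TMM scaling the split was 3 higher and 2 lower. The falls of JAG2 and NRARP exceeded 2-fold, and no rise that was called did; 20.6% of all tested genes were called and at least 2-fold changed, 8.76% higher and 11.9% lower. The median log2 change over the 10 genes was -0.03 and over all tested genes 0.003, close to each other. In 8 of the 10 genes the CPM values of the groups did not overlap, which also held for 73.6% of all tested genes.

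**Figure D1:**
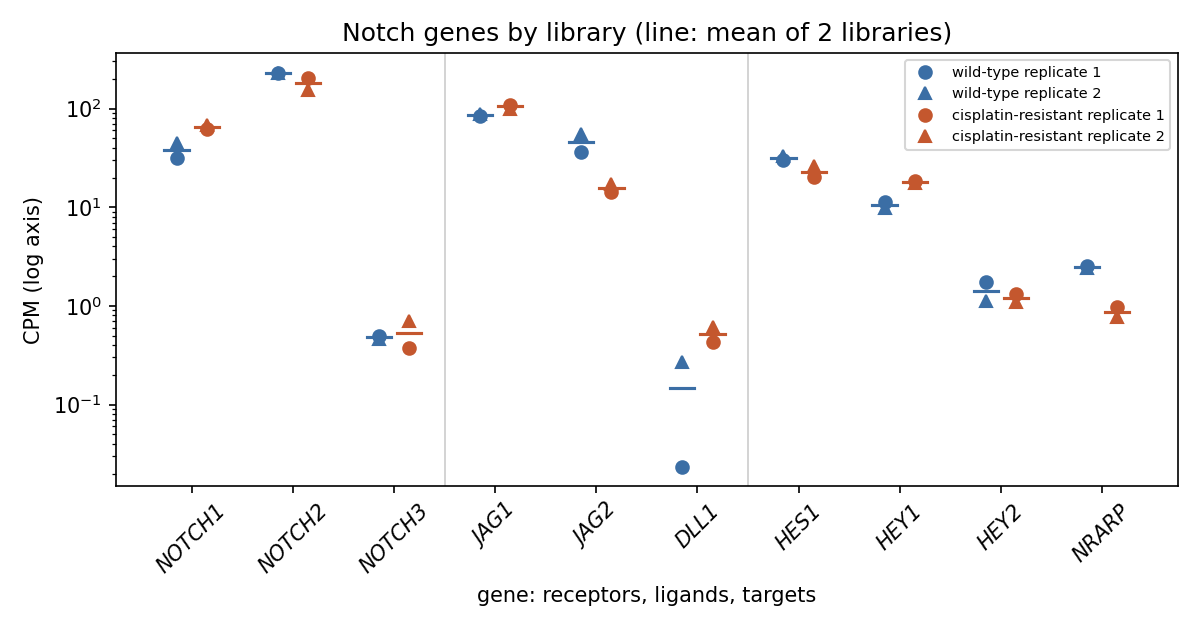
CPM (log axis) of the 10 Notch genes in each library, with the mean of the 2 libraries of a group as a short line. NOTCH1 and HEY1 sit higher and JAG2 and NRARP lower in both resistant libraries, while the groups overlap for NOTCH3 and HEY2.

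Among the receptors, NOTCH1 (chromosome 9, 136494433 to 136545786, GRCh38) was measured at 31.6 and 45.1 CPM in wild-type replicates 1 and 2 and at 62.7 and 67.5 CPM in resistant replicates 1 and 2. Both resistant libraries were above both wild-type libraries, and the wild-type pair was the more spread. NOTCH1 rose by 0.76 ± 0.16 (log2 change ± SE) in resistant cells, a 1.7-fold change with an edgeR adjusted p of 0.00263.

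NOTCH2 (chromosome 1, 119911553 to 120069626) was the most abundant receptor, with 228 and 231 CPM in wild-type and 206 and 156 CPM in resistant cells. Both resistant values lay below the wild-type pair, by unequal amounts. Its log2 change was -0.34 ± 0.13 (95% interval -0.64 to -0.05, edgeR adjusted p = 0.0586), short of the threshold. The value rested on resistant replicate 2: NOTCH2 had a log2 change of -0.15 without that library and of -0.54 without resistant replicate 1, where it was called (edgeR adjusted p = 0.000544). Over its alternatives the adjusted p of NOTCH2 ran from 0.000544 to 0.304, with calls in 6 of 12. Near-identical partial copies of NOTCH2 exist in the genome; the one present in the table, NOTCH2NL, was listed at 0, so how shared reads were assigned is not known and the NOTCH2 level is less certain.

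NOTCH3 (chromosome 19, 15159038 to 15200981) was barely present. It had 0.493 and 0.467 CPM in wild-type and 0.375 and 0.698 CPM in resistant cells, or 21 to 58 counts a library. The resistant libraries lay on either side of the wild-type pair. Its log2 change of 0.17 ± 0.54 had a 95% interval from -1.03 to 1.36 (edgeR adjusted p = 0.826), which spans a 2-fold change in either direction, and no difference was detectable at this depth.

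Of the ligands, JAG1 (chromosome 20, 10637684 to 10673999) had 83.5 and 88.0 CPM in wild-type and 109 and 99.6 CPM in resistant cells. The groups did not overlap, but the gap was small. The log2 change of JAG1 was 0.29 ± 0.11 (95% interval 0.04 to 0.54, edgeR adjusted p = 0.0608), short of the threshold; it was called in 5 of 12 alternatives, with adjusted p from 0.0153 to 0.307.

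JAG2 (chromosome 14, 105140981 to 105168824), the other Jagged ligand, fell the most of the genes called. It had 36.5 and 55 CPM in wild-type and 14.3 and 17.2 CPM in resistant cells. Each resistant library was far below both wild-type libraries, which themselves differed by more than the resistant pair did. JAG2 fell by 1.53 ± 0.19 on the log2 scale, 2.9-fold, with an edgeR adjusted p of 7.61e-05, and the log2 change stayed between -1.79 and -1.20 over 12 alternatives. Annotated genes on the same strand, AL512356.1 and the miRNA gene MIR6765, overlap JAG2 and together share 7.3% of its exon bases. AL512356.1 had 14 to 35 counts a library, against 956 to 2826 for JAG2, but how reads in shared bases were counted is not given, so the JAG2 level is less certain.

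DLL1 (chromosome 6, 170282206 to 170306565), a Delta ligand, had 1 and 14 counts in wild-type and 29 and 51 counts in resistant replicates 1 and 2. In CPM these were 0.0235 and 0.273 against 0.435 and 0.613, so the groups did not overlap but the wild-type libraries differed widely. The log2 change of DLL1 was 1.76 ± 0.82 (95% interval -0.04 to 3.56, edgeR adjusted p = 0.102). It was 0.95 without wild-type replicate 1 (edgeR adjusted p = 0.331, within a range of 0.0024 to 0.34 over 11 alternatives), and 4.38 without wild-type replicate 2 (edgeR adjusted p = 0.0024), where it rests on 1 wild-type count. DLL1 was called in 3 of the 11, the others being no filter on low counts (edgeR adjusted p = 0.0386) and limma-voom (adjusted p = 0.0473). Other genes cover 65.1% of the span of DLL1, among them FAM120B on the opposite strand at 70.1 to 78.3 CPM, though they share none of its exon bases, and this level is less certain for that reason.

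**Figure D2:**
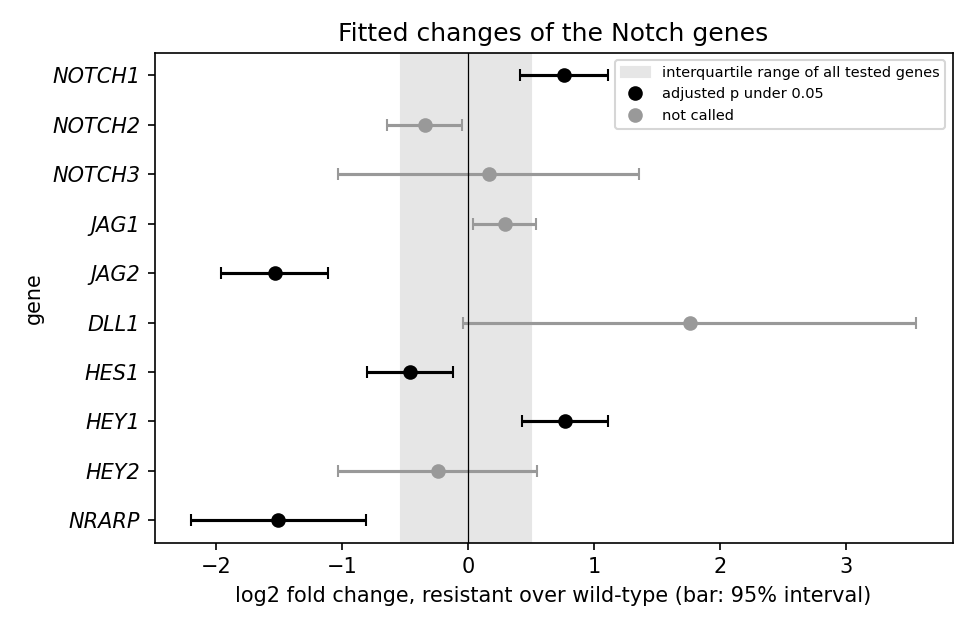
Fitted log2 fold change (resistant over wild-type) of each Notch gene with its 95% interval; black points passed the adjusted p threshold and the grey band is the interquartile range of all tested genes, -0.53 to 0.50. JAG2 at -1.53 and NRARP at -1.51 lie outside the band with their whole intervals, and the intervals of DLL1, NOTCH3 and HEY2 include 0.

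Among the targets, the promoters of HES1, HEY2 and NRARP are shown because Notch acts on such genes through RBPJ, whose core letters TGGGAA were searched on both strands (TTCCCA on the other) in RefSeq windows from 250 bases before to 50 after each gene's start (GRCh38.p14). Matches are in capitals.
HES1, chr3:194135898-194136197, plus strand: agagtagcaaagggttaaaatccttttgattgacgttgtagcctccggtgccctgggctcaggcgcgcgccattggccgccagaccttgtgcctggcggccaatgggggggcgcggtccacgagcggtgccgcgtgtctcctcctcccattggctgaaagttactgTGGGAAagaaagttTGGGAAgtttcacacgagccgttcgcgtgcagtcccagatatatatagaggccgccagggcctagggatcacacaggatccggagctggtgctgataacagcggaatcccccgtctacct
HEY2, chr6:125749382-125749681, plus strand: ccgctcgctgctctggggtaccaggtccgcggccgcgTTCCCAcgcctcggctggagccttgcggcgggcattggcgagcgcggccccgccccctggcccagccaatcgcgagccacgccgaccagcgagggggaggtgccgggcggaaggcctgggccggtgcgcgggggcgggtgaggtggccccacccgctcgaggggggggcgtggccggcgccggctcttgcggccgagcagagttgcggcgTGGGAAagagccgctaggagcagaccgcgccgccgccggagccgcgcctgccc
NRARP, chr9:137302222-137302521, minus strand: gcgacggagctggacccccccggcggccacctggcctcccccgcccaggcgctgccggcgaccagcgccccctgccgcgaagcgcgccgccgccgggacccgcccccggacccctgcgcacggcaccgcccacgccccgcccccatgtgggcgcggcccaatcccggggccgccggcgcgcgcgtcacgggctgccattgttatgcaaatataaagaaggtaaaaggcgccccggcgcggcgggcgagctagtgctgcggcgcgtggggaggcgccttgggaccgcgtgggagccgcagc
HES1 held 2 matches in the same direction, beginning 84 and 70 bases before its start. HEY2 held 1 match in each direction, beginning 213 and 3 bases before the start, and NRARP held none in this window. Of the 10 genes, 8 had a window in the table and 2 of those held a match; 24.0% of the 35116 windows held at least 1 match and 3.8% held 2 or more. DLL1 and HEY1 had no window there. The RefSeq start of HEY2 lies inside the GENCODE span given below, not at its edge. A match describes letters and not a bound site.

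HES1 (chromosome 3, 194136145 to 194138732), the best known Notch target, which encodes a bHLH repressor, had 29.8 and 33.4 CPM in wild-type and 20.1 and 25.9 CPM in resistant cells. Resistant replicate 2 came closest to the wild-type pair. HES1 fell by 0.46 ± 0.16 on the log2 scale with an edgeR adjusted p of 0.031. This call was lost in 3 of 12 alternatives: without wild-type replicate 2 (log2 change -0.37), without resistant replicate 1 (-0.28) and with library totals (-0.36), where the edgeR adjusted p was 0.171, 0.169 and 0.0746, the first being the highest of a range that began at 0.00224.

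HEY1 (chromosome 8, 79764010 to 79767863), a repressor of the related HEY family, went the other way. It had 11.2 and 9.89 CPM in wild-type and 18.5 and 17.4 CPM in resistant cells, with both pairs close together. HEY1 rose by 0.77 ± 0.15 on the log2 scale, 1.7-fold (edgeR adjusted p = 0.00202), and kept a log2 change of 0.68 to 0.87 and its call over 12 alternatives.

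HEY2 (chromosome 6, 125747664 to 125761269) had 1.74 and 1.13 CPM in wild-type and 1.32 and 1.09 CPM in resistant cells, or 58 to 91 counts a library. The groups overlapped, with wild-type replicate 1 the highest. The log2 change of HEY2 was -0.24 ± 0.36 (95% interval -1.03 to 0.55, edgeR adjusted p = 0.613), and 0.10 without wild-type replicate 1.

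NRARP (chromosome 9, 137300482 to 137302251) encodes a small ankyrin repeat protein that promotes loss of the Notch intracellular part. It had 107 and 125 counts in wild-type and 65 and 64 counts in resistant cells, although the resistant libraries were deeper. In CPM these were 2.51 and 2.43 against 0.975 and 0.770, with each pair close together and the groups well apart. NRARP fell by 1.51 ± 0.32 on the log2 scale, 2.84-fold (edgeR adjusted p = 0.00262), and its log2 change stayed between -1.67 and -1.33 over 12 alternatives, all called. HES1 and NRARP were thus lower and HEY1 higher in the same libraries.

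Because these genes differ in length, their levels were compared as CPM per kb of annotated exon. In wild-type cells the order was HES1 (15.3), NOTCH2 (13.6), JAG1 (9.22), JAG2 (7.15), NOTCH1 (3.70), HEY1 (3.27), NRARP (1.40), HEY2 (0.523), NOTCH3 (0.0511) and DLL1 (0.0459). NOTCH1 and HEY1 overlapped between libraries, as did NOTCH3 and DLL1; the other neighbours in that order did not. In resistant cells JAG1 (11.2), HES1 (11.1) and NOTCH2 (10.8) came first and overlapped one another. NOTCH1 (6.27), HEY1 (5.56) and JAG2 (2.47) followed without overlap, then NRARP (0.493) and HEY2 (0.441), which overlapped, and DLL1 (0.163) and NOTCH3 (0.0571). JAG2 was thus above NOTCH1 and HEY1 in wild-type and below both in resistant cells. Taking the longest transcript as the length placed NOTCH2 above HES1, with overlapping libraries, and HEY1 above NOTCH1, both in each group. In resistant cells JAG1 (16.8 to 18.4) then lay above HES1 (12.7 to 16.4) without overlap. HEY1 (7.6 to 8.07) likewise lay above NOTCH1 (6.73 to 7.25) there.

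The makeup of each family, taken within a library and so free of scaling between libraries, moved toward NOTCH1, JAG1 and HEY1. A share also depends on the other members of its family. JAG1 itself was not called (log2 change 0.29 ± 0.11), while JAG2 had a log2 change of -1.53 ± 0.19. NOTCH1 held 18.3% and 24.0% of receptor counts per kb in wild-type and 33.0% and 41.0% in resistant libraries. NOTCH2 held the rest but for NOTCH3, which stayed between 0.218% and 0.468%. Resistant cells therefore still had more NOTCH2 than NOTCH1, at ratios of NOTCH1 to NOTCH2 of 0.494 and 0.700 against 0.225 and 0.316. Among the ligands, JAG1 held 61.1% and 52.1% in wild-type and 83.2% and 78.8% in resistant libraries, and the ratio of JAG1 to JAG2 went from 1.58 and 1.10 to 5.25 and 3.98. DLL1 held at most 1.40% in any library. Among the targets, HEY1 held 17.4% and 14.5% in wild-type and 34.7% and 28.7% in resistant libraries, and NRARP 7.09% and 6.53% against 3.34% and 2.32%. HEY2 held 1.96% to 3.17% in wild-type and 2.13% to 2.92% in resistant libraries. HES1 remained the leading target transcript, at 72.3% and 77.0% against 59.0% and 66.8%. None of these ranges overlapped between groups apart from those of NOTCH3 and HEY2. They are descriptions: with 2 libraries against 2 an exact two-sided permutation test cannot go below p = 0.333.

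**Figure D3:**
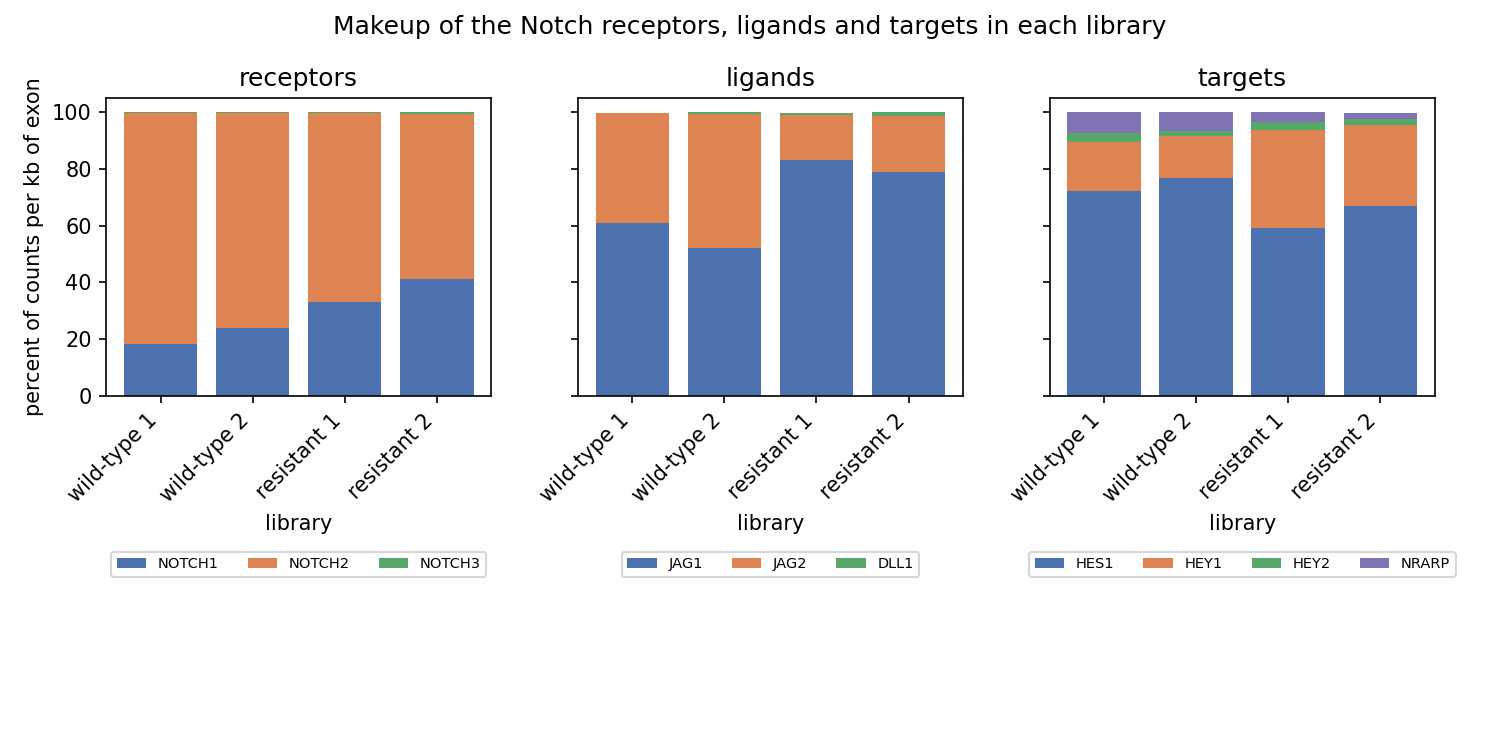
Share of each gene in the counts per kb of exon of its family, as stacked bars for each library; all bars sum to 100 percent. NOTCH1, JAG1 and HEY1 take larger shares in both resistant libraries, and NOTCH2 and HES1 remain the largest receptor and target share in every library.

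A list of 64 other Notch pathway genes, set out by role, held 58 tested genes, of which 11 rose and 21 fell, or 55.2% called against 45.3% of all tested genes. Their median log2 change was -0.10. With library totals in place of TMM the counts were 18 higher and 18 lower, and those over all tested genes went from 4112 to 4942 higher and from 4308 to 3767 lower. The named genes below are those called with at least 2-fold changes, RBPJ and the largest change of each role. MIB1, MAML1, LFNG and RFNG are named beside their relatives and were chosen after their values were seen.

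Genes of ligand endocytosis and receptor turnover were the most one-sided group, with 0 of 15 higher and 10 lower; 23.2% of all tested genes were called lower. Scaling by library totals gave 1 higher and 8 lower, and leaving out wild-type replicate 1 or 2 gave 8 and 7 lower. The ubiquitin ligase NEURL1, which promotes ligand endocytosis, fell from 19.0 and 26.3 CPM to 0.765 and 1.19 CPM. That is a log2 change of -4.52 ± 0.25, 22.9-fold (edgeR adjusted p = 1.47e-07), the largest of the pathway genes tested, and both resistant libraries were far below the wild-type pair. An antisense gene helps to cover 25.7% of the NEURL1 span but shares none of its exon bases. Its relative NEURL1B fell by 1.41 ± 0.28 on the log2 scale. MIB2, another ligase for ligands, fell by 1.02 ± 0.22, with a wild-type pair that differed widely (31.3 and 54.8 CPM). Its log2 change ran from -1.36 to -0.56 over the alternatives, so the fall was not 2-fold in all of them. MIB1, the main ligase for ligands in mammals, had 170 and 168 CPM in wild-type and 196 and 152 CPM in resistant cells, and the groups overlapped. Deltex ligases, which act on the receptor, were also lower: DTX1 fell from 6.96 ± 0.917 to 1.41 ± 0.102 CPM (SD, n = 2), and DTX3 had 53 and 102 counts in wild-type against 20 and 10 in resistant cells. The log2 change of DTX3 was -2.97 ± 0.54, and over the alternatives it ran from -3.72 (without resistant replicate 1) to -2.42.

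In the enzymes that sugar-coat the receptor, 4 of 9 rose and 1 fell, where 22.1% of all tested genes were called higher and 23.2% lower. The one that fell was MFNG, a fringe gene whose product tunes which ligands a receptor answers to. MFNG went from 31.4 and 34.6 CPM to 9.44 and 13.4 CPM, a log2 change of -1.53 ± 0.18 (edgeR adjusted p = 4.63e-05). The fringe genes did not move together. LFNG rose from 1.9 and 2.18 CPM to 3.65 and 4.39 CPM (log2 change 0.98 ± 0.24, edgeR adjusted p = 0.00725). RFNG had a log2 change of -0.26 ± 0.18 and was not called. Of the proteases and their partners, 4 of 9 rose and 2 fell (22.1% and 23.2% of all tested genes), and APH1B, a gamma-secretase subunit, rose from 12.7 and 12.2 CPM to 28.5 and 24.1 CPM (log2 change 1.08 ± 0.15, edgeR adjusted p = 0.000178). Single libraries moved these counts. Of the glycosyltransferases, 2 rose without resistant replicate 1 and 2 fell without resistant replicate 2. Of the proteolysis genes, 2 rose and 1 fell without wild-type replicate 1, 0 fell without wild-type replicate 2 and 1 fell without resistant replicate 2.

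In the nucleus, RBPJ had 70.8 and 73.2 CPM in wild-type and 92.9 and 83.9 CPM in resistant cells, apart but close. Its log2 change of 0.30 ± 0.12 missed the threshold (edgeR adjusted p = 0.0557, and 0.0142 to 0.262 over the alternatives, with 5 calls among them). The Mastermind coactivators split. MAML2 fell from 67.9 and 60.3 CPM to 26.9 and 21.2 CPM (log2 change -1.42 ± 0.15, edgeR adjusted p = 1.81e-05) and MAML3 fell by 1.32 ± 0.27, while MAML1 rose by 0.32 ± 0.11, a call lost without wild-type replicate 1, wild-type replicate 2 or resistant replicate 1. In all, 1 of 7 genes of the activation complex rose and 3 fell, or 57.1% called against 45.3% of all tested genes; without resistant replicate 2, 3 rose, and without wild-type replicate 2 or resistant replicate 1, 0 rose. Among 11 corepressors and inhibitors, 1 rose and 4 fell, or 45.5% called, near the 45.3% of all tested genes; leaving out any single library gave 2 higher, and leaving out wild-type replicate 2 gave 2 lower. The Groucho family members TLE2 and TLE3, corepressors used by HES proteins, fell by 1.93 ± 0.17 and 1.03 ± 0.14, while TLE4 rose by 1.01 ± 0.16.

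Of the other receptors and ligands, 1 of 4 tested rose and 0 fell, with 1 lower without wild-type replicate 2. Over all tested genes 22.1% were called higher and 23.2% lower, so 1 rise among 4 does not set this role apart. DNER, a transmembrane protein described as a ligand of Notch in the nervous system, rose from 3.15 and 3.64 CPM to 18.1 and 13.8 CPM (log2 change 2.23 ± 0.20, edgeR adjusted p = 5.63e-06). NOTCH4 and DLK1 were below the filter on low counts. In the rest of the HES and HEY family 1 of 3 tested fell, or 33.3% called against 45.3% of all tested genes. That count was larger with limma-voom, where 2 fell, and with wild-type replicate 1 left out. The gene was HES2, which went from 25.1 and 25.3 CPM to 6.78 and 6.54 CPM (log2 change -1.92 ± 0.15, edgeR adjusted p = 1.99e-06). HEYL had the largest log2 change of that role, -2.49 ± 0.97, on 8 and 19 counts against 6 and 1, and did not pass (edgeR adjusted p = 0.0568, and 0.0362 to 0.402 over its alternatives, with log2 changes from -4.31 without resistant replicate 1 to -1.61 without resistant replicate 2). HES7 was below the filter and HES3, HES5 and HES6 were listed at 0, which in this table does not show that a gene is silent.

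**Figure D4:**
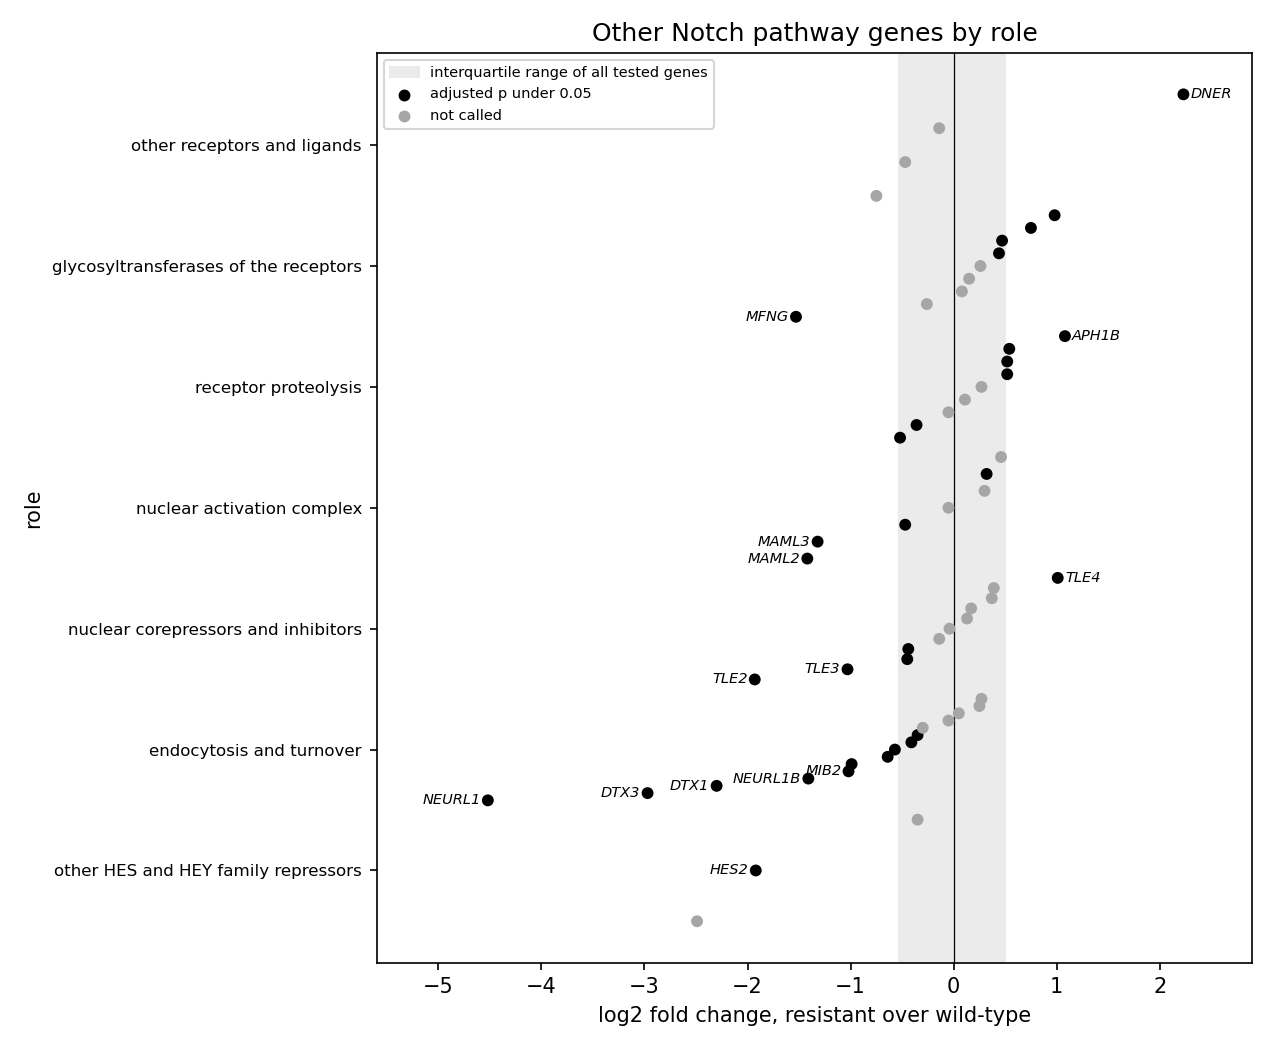
Fitted log2 fold change of the 58 tested Notch pathway genes outside the 10 described first, one point a gene, by role; black points passed the adjusted p threshold, the genes labelled also changed at least 2-fold, and the band is the interquartile range of all tested genes. The endocytosis and turnover genes lie mostly to the left, with NEURL1 at -4.52, and DNER at 2.23 lies farthest to the right.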

How the data were processed

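Libraries were prepared from poly(A) RNA with a strand-specific kit, per the labels' protocols. The processing involved STAR 2.5.1a, HTSeq, DESeq and the build GRCh38.p7, tools named without roles per the submitters' processing notes. No source used here gives the annotation, or how reads were assigned by strand or between overlapping genes. The main values are whole-number counts per gene, not normalized, as deposited. A second deposited table holds a normalized signal, each count divided by 1 factor per library by the authors (0.725, 0.879, 1.132 and 1.418), and was used for an alternative only. Divided by its smallest value above 0 in each library, 100% of its 93481 values above 0 came out whole within 0.01 reads, and they equalled the deposited counts; the same test on them, added after seeing the data, called 4112 genes higher and 4308 lower, as on the counts.

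For all genes, the test was that of edgeR 4.0.16 under R 4.3.3 (quasi-likelihood F test, TMM factors, filterByExpr with minimum count 10 and minimum total 15, group as the only term), with Benjamini-Hochberg adjustment over 18602 genes and a threshold of 0.05. The SE is the log2 change over the square root of F, and 95% intervals use its t distribution. The fit was tested on simulated data. Alternatives were RLE scaling, library totals, the authors' factors, no filter, a 1 CPM filter, DESeq2 1.42.0, limma-voom (limma 3.58.1), a replicate term and leaving out each library. Positions, exon lengths and overlaps are from GENCODE release 29, promoters from RefSeq (GRCh38.p14). Nothing in the labels says that replicates came from separate cultures, so p-values measure the spread between these libraries; replicates differed beyond sampling noise (chi-square over degrees of freedom 18.3 and 50.5). Reads carry no molecular identifiers. The members and lists were chosen with earlier results of these data known. Beside all members, the text names pathway genes called with at least a 2-fold change, RBPJ and the largest change of each role; other pathway genes were named after their values were seen. A gene at 0 in every library was taken as not measured. Figures used matplotlib 3.10.9.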

Additional observations from a re-analysis of the deposited data

How the results depend on the processing

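NOTCH1, JAG2, HEY1 and NRARP kept their direction and call under all 12 alternatives each, and HES1 kept its direction but lost its call in 3. Without the filter on low counts 4 Notch genes were called higher in place of 2, and 4 lower in place of 3. Over all genes that setting called 4561 higher and 4376 lower, in place of 4112 and 4308. Leaving out single libraries gave 2 to 3 called higher and 2 to 3 called lower, 8 to 16 and 14 to 21 of the other pathway genes, and 3330 to 4022 and 3417 to 4159 of all genes. Leaving out single libraries moved the log2 change of NOTCH3 between -0.35 and 0.55 and that of HEY2 between -0.52 and 0.10, the only reversals among the 10 genes; the cause was not tested. With library totals 18 other pathway genes were called higher in place of 11. Replicate numbers 1 and 2 are shared by both groups; deviations of same-numbered libraries correlated at 0.231 over 14259 genes, but nothing in the labels says that a number marks a shared day or culture. A fit with a replicate block called 4767 genes higher and 4879 lower over the whole table, 3 and 4 Notch genes (JAG1 and NOTCH2 added) and 18 and 22 other pathway genes. With no filter or with a wild-type library left out, edgeR pooled the spread over all genes (median residual degrees of freedom 54600, 19600 and 19700 against 11.1), so those p-values may be too small, and a lone library is assumed to vary like the other group. The share of a receptor moved with the length used: NOTCH1 held 16.9% of wild-type and 30.8% of resistant receptor counts per kb of longest transcript. The balance of JAG1 and JAG2 moved too. Per kb of longest transcript they had 14.4 and 7.84 CPM in wild-type and 17.6 and 2.71 CPM in resistant cells. Depth limits the tested genes NOTCH3, DLL1, HEY2, HEYL, DLL3 and DLL4, with under 100 counts in every library.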

Other observations

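NALT1, a noncoding gene that lies next to NOTCH1 on the opposite strand (chromosome 9, 136546212 to 136549893, GRCh38), was looked up after its values were seen. It had 3.01 and 3.62 CPM in wild-type and 1.70 and 2.41 CPM in resistant cells, the direction opposite to that of NOTCH1. Its log2 change of -0.69 ± 0.27 did not pass the threshold (edgeR adjusted p = 0.0584, and 0.025 to 0.267 over the alternatives).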
